A study of Bos taurus with 18 samples.

Results

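The genes described here encode the proteasome: the subunits of its core and of its cap, the factors that assemble them and the alternative activators. Members were the probe sets with a single gene symbol that matched the PSMA, PSMB, PSMC, PSMD, PSME1 to PSME4 and PSMG1 to PSMG4 names, without PSMB8 and PSMB9, and each symbol was represented by its brightest probe set. This gave 44 genes among 18010 genes with a single symbol, of which 16 belonged to the core, 17 to the cap, 7 to the assembly factors and 4 to the activators. Expression was measured in liver biopsies of 18 multiparous Holstein cows, taken 1 week after calving and hybridised to Bovine Gene 1.0 ST arrays with 1 array per cow. The control group (n = 9, female) ate silage-based mixed rations before and after calving. The niacin group (n = 9, female) ate the same rations with added rumen-protected niacin (NiaShure), a coated form that partly escapes the rumen. Feeding began 3 weeks before calving, and the dosage of 79 mg niacin per kg body weight was put by the labels at 47 mg reaching the duodenum and 31 mg available for absorption (both per kg). RNA samples with the lowest integrity had been left out by the submitters in each group, and the labels name no batch. All values are log2 expression after robust multi-array averaging (RMA).

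The proteasome is the large protease that degrades proteins marked with ubiquitin. Rings of alpha subunits gate its barrel-shaped core, and rings of beta subunits inside it carry the cutting sites. The cap recognises ubiquitin chains, removes them and threads the unfolded protein into the core by means of a ring of ATPases. In liver, as in other tissues, it clears short-lived and damaged proteins, and interferon replaces the constitutive cutting subunits by inducible ones that favour peptides for antigen presentation. The roles named below are those known from the human and yeast proteasomes.

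The tissue label was checked against hepatocyte markers, whose mean log2 value lay between 11.31 and 11.75 in the 18 cows. Array medians lay between 5.57 and 5.72, and correlations between arrays over all probe sets lay between 0.972 and 0.990. Blood and immune cell markers set some biopsies apart. In niacin cow 8 the mean of the erythroid markers was 7.23 and that of the neutrophil markers 6.65, against 4.87 to 5.65 and 5.12 to 5.83 in the control group. Of the tested macrophage markers, 9 of 10 had log2 fold changes above 0 with niacin, as had 7 of 7 neutrophil markers, 8 of 9 T and NK cell markers and 5 of 6 erythroid markers, whereas 8 of 10 hepatocyte markers were below 0. Of 7 B and plasma cell markers, 4 were above 0 and 3 below. Over all probe sets tested, 53.8% were above 0. At an unadjusted limma p under 0.05, the higher side held 4 macrophage, 2 neutrophil, 3 T and NK cell, 1 B and plasma cell and 0 erythroid markers. The lower side held 3 hepatocyte markers, and 0 markers passed the adjusted p. Over all probe sets tested, 3.34% were on the higher side and 4.41% on the lower side at that unadjusted threshold. The mean of the macrophage markers ranged from 8.31 to 8.95 in control cows and from 8.41 to 9.29 in niacin cows, and that of the hepatocyte markers from 11.47 to 11.75 and from 11.31 to 11.67. In a bulk sample, fewer cells of a type and less RNA per cell cannot be told apart.

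Of the 44 genes, 43 passed the filter on low signal, which left out probe sets with a mean log2 value under 4.35. PSMA8, an alpha subunit known from the testis in other mammals, lay below it with a mean of 3.05, and PSMB11, the beta subunit of the thymus in other mammals, lay just above it with a mean of 4.47. PSMA2 is not described because its probe set is shared with another symbol.

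None of the genes was shown to differ between niacin-fed and control cows. After adjustment over all 18250 probe sets tested, 0 of the 43 genes passed the limma threshold of 0.05, and 0.0% of all probe sets did. Exact permutation tests likewise called 0 probe sets after adjustment, with 1375 at an unadjusted p under 0.05 where limma had 1413. At an unadjusted p under 0.05, 2 genes were on the higher side (PSMD14 and PSMD3, both lid subunits of the cap) and 0 on the lower side. This is 4.65% of the genes on the higher side, against 3.34% of all probe sets tested on the higher side and 4.41% on the lower side, so the share is near the background. The log2 fold change was above 0 in 30 of 43 genes (69.8%) and in 53.8% of all probe sets, with medians of 0.04 and 0.01. The 95% interval included 0 in 41 of 43 genes. It reached 0.19 to either side in the median gene and 0.30 at the widest. The bounds over all 43 genes ran from -0.34 to 0.58.

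**Figure D1:**
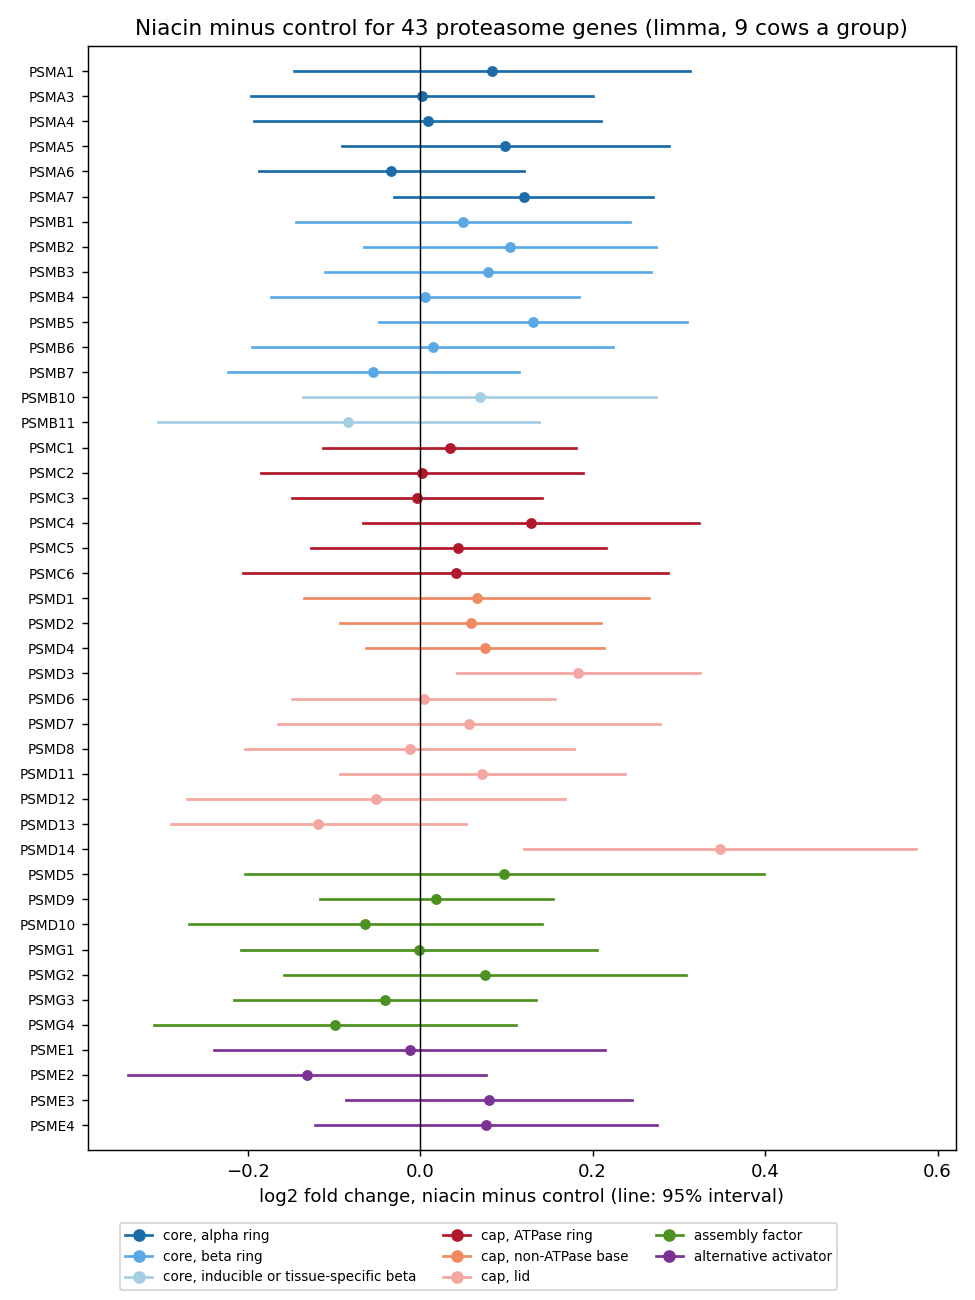
Log2 fold change, niacin minus control, of the 43 genes tested (points, limma, 9 cows a group) with the 95% interval (lines), coloured by role. PSMD14 at 0.35 and PSMD3 at 0.18 have intervals that leave out 0, and the other 41 intervals include it.

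In the core, all 6 alpha subunits tested lay between -0.03 (PSMA6) and 0.12 (PSMA7) in log2 fold change, with 5 above 0 and a median of 0.05. These subunits form the outer rings and the gate through which the substrate enters. The 7 constitutive beta ring subunits lay between -0.05 (PSMB7) and 0.13 (PSMB5), with 6 above 0 and a median of 0.05.

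PSMB5, PSMB6 and PSMB7 carry the chymotrypsin-like, caspase-like and trypsin-like cutting sites. PSMB5 was at 8.14, 8.46 and 8.61 (lowest, median and highest) in control cows and at 8.31, 8.56 and 8.90 in niacin cows, giving a log2 fold change of 0.13 ± 0.09 (SE) at a limma adjusted p of 0.748. The groups overlapped over most of their ranges, although 4 niacin cows lay above the highest control cow. PSMB6 was at 7.78, 8.24 and 8.43 in control cows and at 7.83, 8.18 and 8.45 in niacin cows, giving a log2 fold change of 0.01 ± 0.10 (SE) at a limma adjusted p of 0.985. PSMB7 was at 8.83, 9.15 and 9.37 in control cows and at 8.86, 9.08 and 9.36 in niacin cows, giving a log2 fold change of -0.05 ± 0.08 (SE) at a limma adjusted p of 0.918. For both genes the group ranges almost coincided.

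PSMB10, the inducible counterpart of PSMB7, was at 7.52, 7.89 and 8.25 in control cows and at 7.64, 7.95 and 8.38 in niacin cows. Its log2 fold change was 0.07 ± 0.10 (SE), at a limma adjusted p of 0.913, with overlapping groups.

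In the cap, the 6 ATPase subunits, which unfold the substrate, had log2 fold changes between -0.0033 (PSMC3) and 0.13 (PSMC4), with 5 above 0. The 3 non-ATPase subunits of the base (the scaffold proteins PSMD1 and PSMD2 and the ubiquitin receptor PSMD4) were all above 0, with a median of 0.07. The 8 lid subunits spanned the widest range, from -0.12 (PSMD13) to 0.35 (PSMD14), with 5 above 0.

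PSMD14 is the metalloprotease of the lid that cuts the ubiquitin chain off the substrate before it is degraded. It was at 6.28, 6.83 and 6.91 in control cows and at 6.73, 7.16 and 7.42 in niacin cows. Most niacin cows were high and the groups overlapped only in part, since 5 niacin cows lay above the highest control cow and 3 control cows below the lowest niacin cow. The means were 6.74 ± 0.20 and 7.09 ± 0.28 (SD, n = 9 each), a log2 fold change of 0.35 ± 0.11 (SE), or 1.27-fold, with a 95% interval of 0.12 to 0.58. The unadjusted limma p was 0.0045 and the exact two-sided permutation p 0.0090, but the limma p adjusted over all probe sets was 0.474. Leaving out 1 cow in turn gave 0.29 (without control 12, the lowest of all) to 0.39 (without niacin 39).

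PSMD3, a scaffold subunit of the lid, was at 8.40, 8.56 and 8.63 in control cows and at 8.41, 8.74 and 8.94 in niacin cows. The control cows were tightly grouped and 6 niacin cows lay above all of them, while the lowest niacin cow was level with the lowest control cow. The log2 fold change was 0.18 ± 0.07 (SE), or 1.14-fold, with a 95% interval of 0.04 to 0.32, an exact two-sided permutation p of 0.0067 and a limma adjusted p of 0.532. PSMD13, another structural subunit of the lid, was at 7.88, 8.06 and 8.36 in control cows and at 7.74, 7.95 and 8.24 in niacin cows. Its log2 fold change was -0.12 ± 0.08 (SE), at a limma adjusted p of 0.777, with 6 of 9 niacin cows below the control median. PSMD13 was the only member with a second probe set, whose log2 fold change was -0.04 ± 0.09 (SE), and the correlation of these probe sets across cows was 0.07.

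PSMD14 and PSMD3 were also set against the rest of the complex in the same cow, as the log2 value minus the mean of the other core and cap genes. This was done for these genes only, which were chosen by their difference between the groups. A gap in the relative value is therefore no separate evidence. For PSMD14 this relative value was 0.31 higher in niacin than in control cows, with an SD of 0.14 in either group (n = 9 each). All 9 niacin cows lay above the control median and 7 above the highest control cow. For PSMD3 the relative value was 0.14 higher with niacin, and 3 niacin cows lay above the highest control cow. Most macrophage, neutrophil, T and NK cell and erythroid markers had log2 fold changes above 0 and most hepatocyte markers below 0, as given above, and their part in the values of PSMD14 and PSMD3 was not tested.

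**Figure D2:**
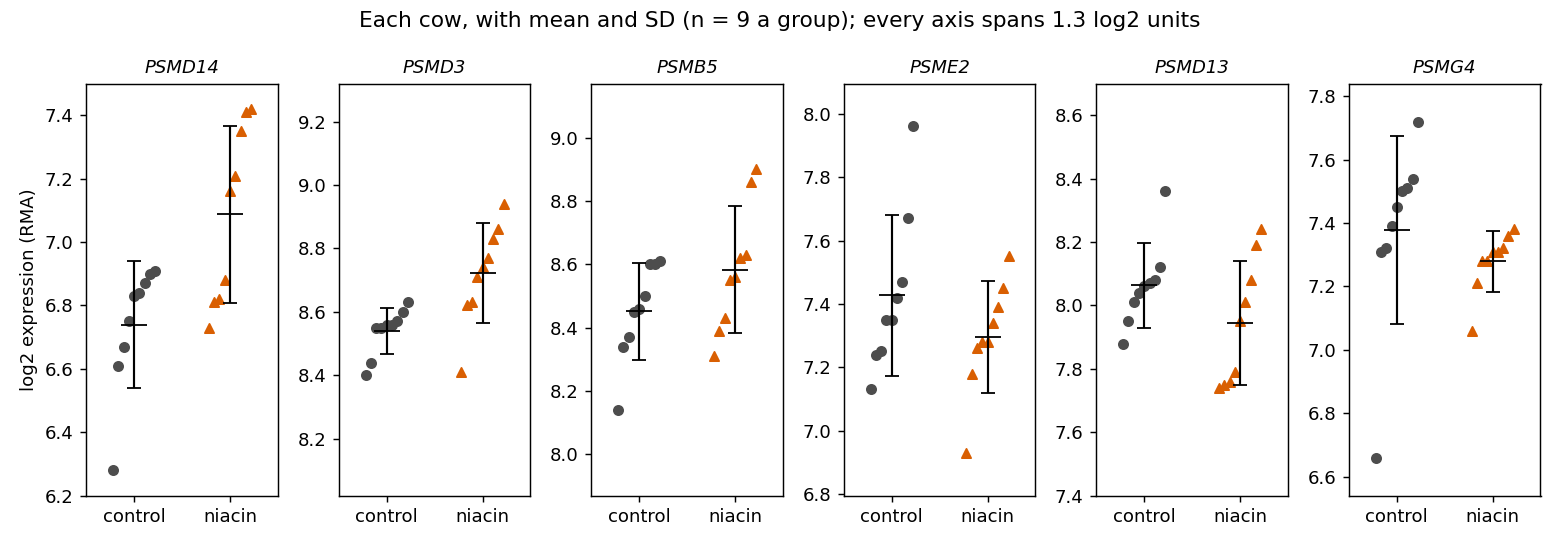
Log2 expression in each cow (points) with mean and SD (bars, n = 9 a group) for the 3 genes with the largest and the 3 with the smallest log2 fold change. Each axis spans the same width, and all 6 genes overlap between the groups, with 5 niacin cows above the highest control cow for PSMD14 and 6 for PSMD3.

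The assembly factors are chaperones that are absent from the finished complex. PSMG1 to PSMG4 help to build the alpha ring, and PSMD5, PSMD9 and PSMD10 help to build the base of the cap. Of these 7 genes, 3 were above 0, and the median of the 7 was -0.0011. PSMG4 was at 6.66, 7.45 and 7.72 in control cows and at 7.06, 7.31 and 7.38 in niacin cows, giving a log2 fold change of -0.10 ± 0.10 (SE) at a limma adjusted p of 0.860. The niacin cows were close together, and 9 of 9 lay below the control median. Control 23 was far below the other control cows. Without it, the log2 fold change of PSMG4 was -0.19, past the unadjusted limma threshold but with an adjusted p of 0.745. PSMD5 was at 6.10, 6.51 and 6.96 in control cows and at 5.83, 6.56 and 7.01 in niacin cows, giving a log2 fold change of 0.10 ± 0.14 (SE) at a limma adjusted p of 0.917, and the niacin range enclosed the control range.

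The alternative activators bind the ends of the core in place of the cap. PSME1 and PSME2 form one ring together and are induced by interferon, PSME3 forms a nuclear ring of its own, and PSME4 is a single large protein. PSME1 was at 8.35, 8.91 and 9.25 in control cows and at 8.60, 8.77 and 9.18 in niacin cows, giving a log2 fold change of -0.01 ± 0.11 (SE) at a limma adjusted p of 0.990. PSME2 was at 7.13, 7.35 and 7.96 in control cows and at 6.93, 7.28 and 7.55 in niacin cows, giving a log2 fold change of -0.13 ± 0.10 (SE) at a limma adjusted p of 0.801. The groups overlapped in both, and the PSME2 value rested in part on control 1, the highest cow, without which it was -0.06. PSME3, at 0.08, had the highest log2 fold change of the 4.

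Single cows of a group differed about as much in these genes as in others. The within-group SD had a median of 0.195 over the 43 genes and 0.200 over all probe sets, and it ranged from 0.114 (PSMD9) to 0.337 (PSMD5). The next largest was that of PSMC6, an ATPase, which was at 7.98, 8.19 and 8.48 in control cows and at 7.69, 8.31 and 8.82 in niacin cows. Its log2 fold change was 0.04 ± 0.12 (SE), at a limma adjusted p of 0.959, and the niacin cows reached both below and above the control range.

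**Figure D3:**
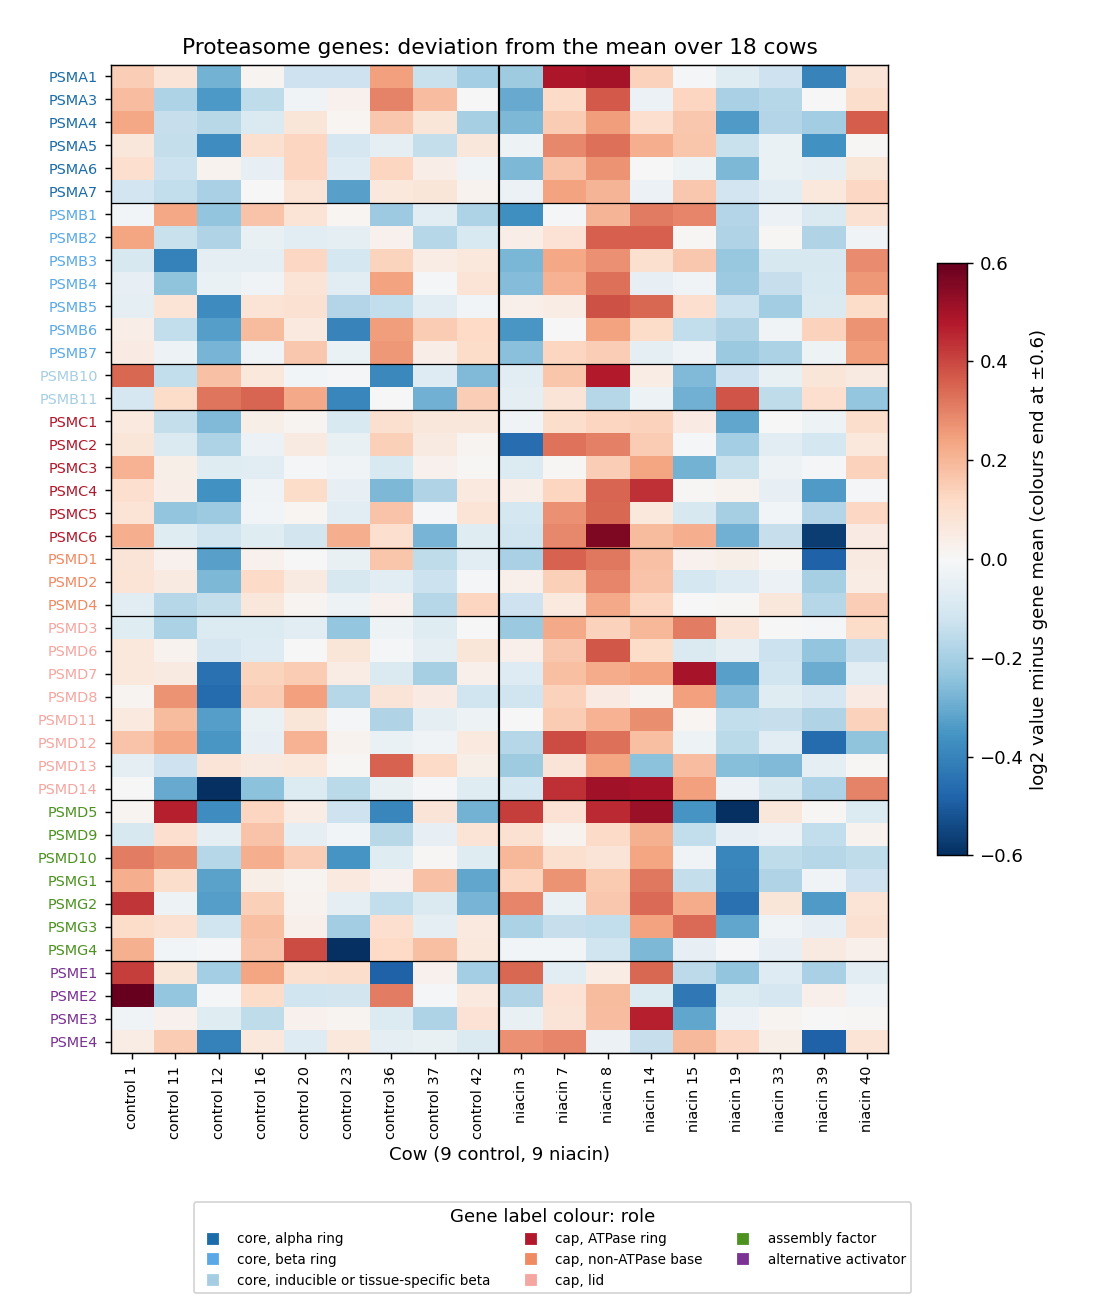
Log2 value minus the mean of the gene over 18 cows (colour, ending at ±0.6) for the 43 genes (rows, by role) in each cow (columns). Niacin cows 8, 7 and 14 are high and control cow 12 is low through most rows of core and cap, whereas PSMB11, the assembly factors and the activators follow other patterns.

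Across cows, the core and cap genes went up and down together. After the group means were removed, the mean of the 15 core genes correlated with the mean of the 17 cap genes at r = 0.889 over 18 cows (0.792 within control cows, 0.918 within niacin cows). Without niacin 8 and niacin 3, the cows farthest from the median of the core mean, r was 0.856. Over the 496 pairs of these 32 genes the median r was 0.508 and 461 pairs were positive. The median was 0.488 within the core, 0.558 within the cap and 0.491 between core and cap, so pairs across the core and cap were about as alike as pairs within the core. Over all pairs of tested probe sets the median r was -0.0007 and 4.81% reached 0.508, and over pairs of probe sets in the same range of mean signal the median was 0.06 and 8.60% reached it. These correlations are descriptions across cows that share 1 normalization, and no test was made of them. The first principal component of the 32 genes held 53.1% of their variance and the second 13.9%.

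The extremes were individual cows. In niacin 8 the core and cap means both lay 0.28 above their means over all cows of both groups. Of the 32 genes, 31 were above their own mean over all cows. In niacin 7 the core lay 0.16 and the cap 0.20 above, again with 31 genes, and in niacin 14 and niacin 40 with 26 genes each. At the other end, control 12 had its core 0.16 and its cap 0.25 below the means over all cows. In this cow 4 of 32 genes were above their own mean over all cows. Niacin 33 had 3 genes above, niacin 39 had 4, niacin 19 had 5 and niacin 3 had 6. The control cows other than control 12 stayed between these ends.

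The spread between cows was larger in the niacin group. The core mean was 8.32 ± 0.09 in control and 8.36 ± 0.16 in niacin cows, and the cap mean 8.22 ± 0.09 and 8.27 ± 0.17 (SD, n = 9 each). The SD was larger in niacin cows for 27 of the 32 genes (84.4%) and for 59.1% of all probe sets tested, with median ratios of niacin to control SD of 1.39 and 1.09. Without niacin 8 these shares were 81.2% and 56.9%. Because the 32 genes varied together across cows, they are not independent counts, and the difference in spread was not tested.

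**Figure D4:**
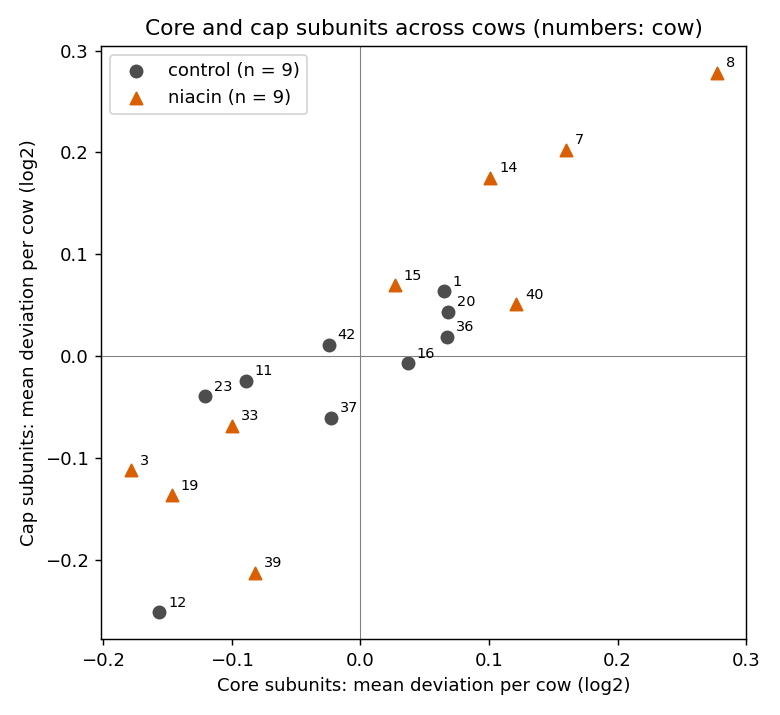
Mean deviation from the mean over all cows (log2) of the 15 core genes (horizontal) and the 17 cap genes (vertical) in each numbered cow. The points lie along a diagonal with r = 0.892 (0.889 after the group means were removed), from control 12 to niacin 8. The niacin cows extend farther towards the upper end.

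Other measures of the arrays moved with this axis in part. The array median correlated with the mean of the core and cap genes at r = -0.49 and the mean of the dim probe sets at r = -0.22. With each array centred on its median, the median r between pairs was 0.605 and the r of core with cap 0.926. Niacin 8, the highest cow, was also the highest in erythroid and neutrophil markers and the lowest in hepatocyte markers, and without it the median pair r was 0.444 and the r of core with cap 0.852. Over all cows the core and cap mean correlated with the erythroid marker mean at 0.41 (-0.43 within control cows, 0.57 within niacin cows). For the neutrophil mean r was 0.28 (-0.70 within control cows, 0.57 within niacin cows). The B and plasma cell mean had the largest r in size of the cell type lists, at -0.45 (-0.56 within control cows, -0.52 within niacin cows). For the hepatocyte mean r was -0.18 (0.78 within control cows, -0.54 within niacin cows). The macrophage mean was at 0.15, the T and NK cell mean at 0.19 and the skeletal muscle marker mean at -0.33. The part of cell composition in the shared variation was not tested.

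The roles differed in how closely their genes followed the rest of the complex, measured as the correlation of each gene with the mean of the other core and cap genes. The alpha ring had a median of 0.79, from 0.62 (PSMA7) to 0.87 (PSMA5), and the beta ring 0.74, from 0.55 (PSMB1) to 0.76 (PSMB7). The ATPases had 0.76, from 0.47 (PSMC3) to 0.88 (PSMC2), the base 0.78, and the lid 0.68, from 0.49 (PSMD13) to 0.91 (PSMD14). PSMD14 had the highest correlation of the 43 genes, at 0.83 within control cows and 0.96 within niacin cows.

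Assembly factors and activators followed less closely. The assembly factors had a median of 0.38, from 0.09 (PSMG4) to 0.55 (PSMG1), and the activators 0.31, from 0.20 (PSME1) to 0.40 (PSME2). The inducible PSMB10 was at 0.29 (-0.25 within control cows, 0.64 within niacin cows) and the dim PSMB11 at -0.29. PSMG4 was at 0.51 within control cows and at -0.51 within niacin cows. A correlation of 0.7 or more was reached by 10 of 15 core genes, 9 of 17 cap genes, 0 of 7 assembly factors and 0 of 4 activators, and by 193 of 18207 other probe sets (1.06%). PSME1 and PSME2, which share a ring, correlated with each other at only 0.08. Of the constitutive cutting subunits, PSMB6 and PSMB7 correlated at 0.75, PSMB5 and PSMB7 at 0.51 and PSMB5 and PSMB6 at 0.47.

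**Figure D5:**
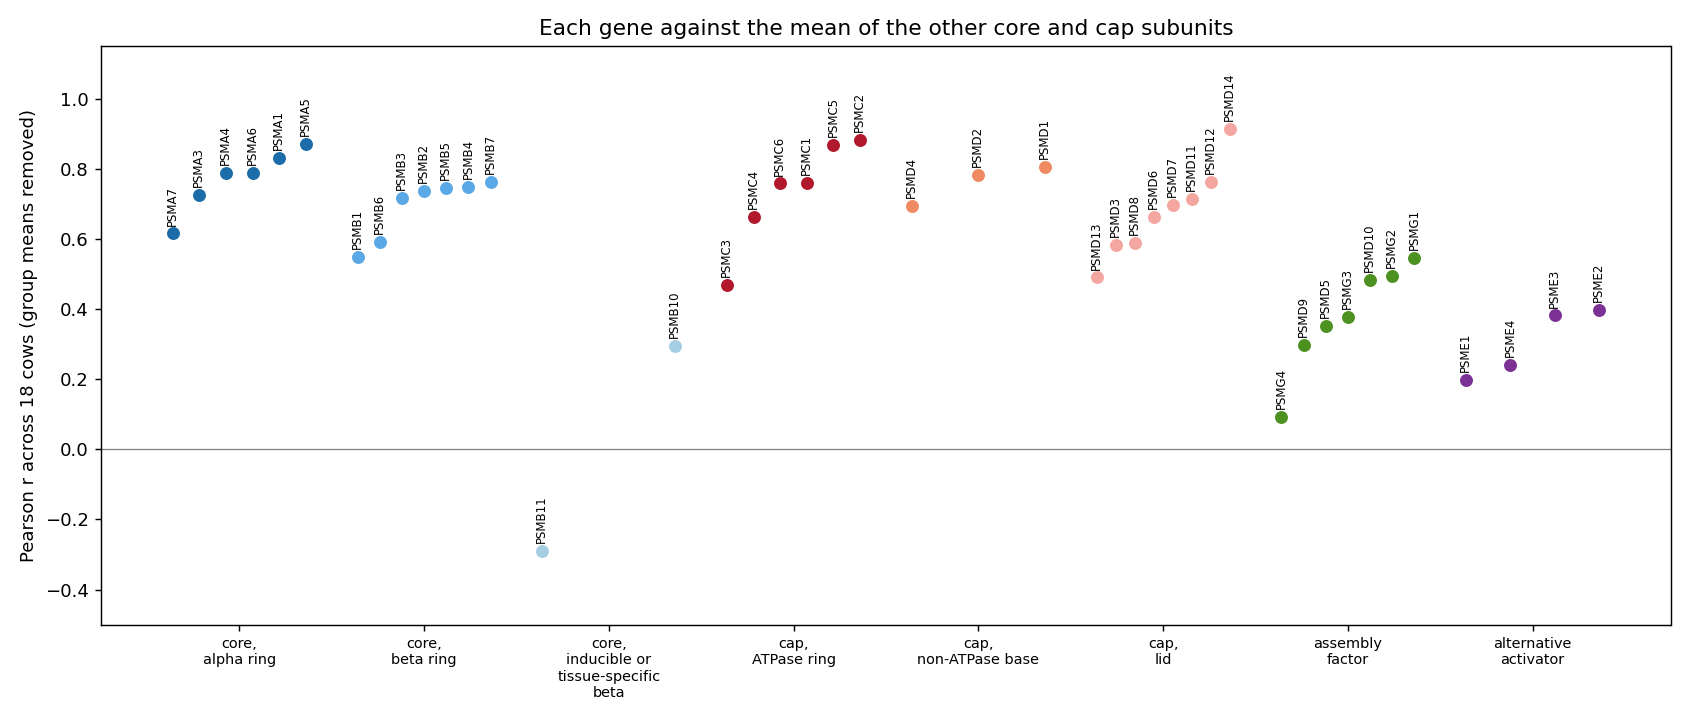
Pearson r across 18 cows, group means removed, of each of the 43 genes with the mean of the other core and cap genes, by role. Most core and cap genes lie above 0.5, all assembly factors and activators lie below 0.6, and PSMB11 lies below 0.

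Among genes outside the complex, those most alike in pattern over the 18 cows were COPS5 (r = 0.927), VCP (0.920), PARK7 (0.910), REXO2 (0.886), PPIL3 (0.880), SBDS (0.875), TWF1 (0.871) and TM4SF4 (0.870). COPS5 is the metalloprotease subunit of the COP9 signalosome, VCP the ATPase that pulls ubiquitinated proteins out of membranes and complexes, PARK7 a protein of the oxidative stress response and REXO2 an exonuclease for short RNAs. PPIL3 is a cyclophilin, SBDS a ribosome maturation factor, TWF1 an actin-binding protein and TM4SF4 a membrane protein. In all 8 genes control 12 was the lowest control cow and niacin 8 the highest niacin cow. These genes were chosen by their likeness to the core and cap mean, which has the same extreme cows. The shared extremes are therefore no separate evidence. Between the groups, 0 of 8 passed the threshold (limma adjusted p of 0.746 to 0.982). COPS5 correlated with PSMD14 at 0.91.

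Other genes of the pathway were taken from lists, and 0 genes of any list passed the limma adjusted p. Of 10 further proteasome parts and inhibitors, 6 were above 0 in log2 fold change (median 0.03). The mean of the 10 correlated with that of the core and cap at 0.89. Taken singly, the 10 genes had a median r of 0.57 and a lowest r of 0.27, and 4 of them reached 0.7. The closest were UCHL5, a deubiquitinase of the cap (r = 0.85), POMP, which matures the core (0.81), AKIRIN2, which carries proteasomes into the nucleus (0.74), and TXNL1, a thioredoxin-like protein bound to the cap (0.73). ADRM1, a ubiquitin receptor of the cap, was at 0.15 ± 0.08 (SE) in log2 fold change, with a limma adjusted p of 0.655.

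Of 7 tested genes for ubiquitin-activating and conjugating enzymes, 6 were above 0 (median 0.04). The mean of the 7 correlated with the core and cap at 0.66, led by UBE2N (0.75), UBE2D3 (0.72) and UBE2D1 (0.70). The single enzymes had a median r of 0.54 and a lowest r of 0.14. Of 11 genes that deliver substrates, 7 were above 0 (median 0.09), with r = 0.55 for their mean. Taken singly, these genes had a median r of 0.15, and 1 of the 11 (VCP) reached 0.7. Of 8 regulators of proteasome genes, 3 were above 0 (median -0.0078), with r = 0.26. Among these, NFE2L1, the transcription factor that raises proteasome genes when the protease is inhibited, was at 0.17 ± 0.09 (SE) in log2 fold change, with a limma adjusted p of 0.663 and a correlation with the core and cap of 0.22.

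The inducible genes were compared with interferon-stimulated genes. Of 21 such genes tested, 20 were below 0 with niacin (median log2 fold change -0.33), against 8437 of all 18250 probe sets. At an unadjusted limma p under 0.05 there were 5 genes on the lower side, against 4.41% of all probe sets, and 0 passed the adjusted p. OAS1Y, an antiviral synthetase, was at -0.69 ± 0.24 and RIGI, an RNA sensor, at -0.67 ± 0.24 in log2 fold change (SE, limma adjusted p of 0.496 and 0.502). DHX58, a helicase related to RIGI, was at -0.27, IRF9, a transcription factor of the interferon response, at -0.31 and PARP14, an ADP-ribosyltransferase, at -0.42 (limma adjusted p of 0.553 to 0.607). The mean of these genes ranged from 6.55 to 8.29 in control cows, where control 1 was highest, and from 6.29 to 6.94 in niacin cows.

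The correlations with the interferon gene mean over 18 cows were made without removing the group means, so differences between the groups enter them. PSMB10 correlated with the interferon gene mean at r = 0.585 over 18 cows (permutation p = 0.0133, adjusted over 6 genes 0.0400) and rho = 0.571 (permutation p = 0.0158, adjusted 0.0946). It was 0.785 within the 9 control cows and 0.792 within the 9 niacin cows, with exact permutation p adjusted over the 6 genes of 0.0462 and 0.0468. Without control 1 and niacin 15, the cows farthest from the median, r was 0.407 over 16 cows (permutation p adjusted 0.708). The pooled value of PSMB10 was thus lower without those cows and no longer passed the adjusted threshold. PSME2 correlated at r = 0.718 (permutation p = 0.00401, adjusted 0.0241) and rho = 0.389 (adjusted 0.259). Within the 9 niacin cows it was 0.841 and within the 9 control cows 0.673, with exact permutation p adjusted over the 6 genes of 0.041 and 0.140. Over both groups without control 1 it was 0.373 (adjusted permutation p = 0.417) and without both cows 0.0834, so the pooled relation rests on those cows. PSME1 was at r = 0.497 (permutation p = 0.0353, adjusted 0.0706) and rho = 0.370 (adjusted 0.259), and at 0.214 without both cows. Within control cows it was 0.668 and within niacin cows 0.194 (exact permutation p adjusted 0.140 and 0.617). The within-control values all include control 1, the highest control cow for PSMB10, PSME1, PSME2 and the interferon gene mean.

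The constitutive subunits had no correlation past the adjusted threshold, with pooled r of -0.14 for PSMB5, 0.0062 for PSMB6 and 0.02 for PSMB7, rho of -0.10, 0.04 and -0.03, and adjusted permutation p of 0.835 to 0.982 for r. Within the 9 niacin cows r was 0.690 for PSMB6, 0.406 for PSMB7 and 0.319 for PSMB5 (exact permutation p adjusted 0.0761, 0.423 and 0.486). Within the 9 control cows it was -0.189, -0.256 and -0.131 (adjusted 0.719, 0.658 and 0.719). Whether these correlations differ between the groups was not tested. After group means were removed, PSMB10 correlated with PSMB8, another inducible beta subunit, at 0.82 and with PSMB9 at 0.47, but with PSMB7, the subunit it replaces, at 0.02.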

How the data were processed

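Per the submitters' processing notes, the authors made the deposited log2 values by RMA in Affymetrix Expression Console (no version is given in the sources used here). RMA corrects background, quantile-normalizes the arrays and summarises each probe set, which hides any change shared by most genes. The number of arrays (18) limits the precision.

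Of 24333 probe sets, 18457 had 1 symbol, 688 several and 5188 none in the platform annotation. The lowest share of 0.25 by mean (6083 probe sets) was left out, and 18250 were tested in R 4.3.3 with limma 3.58.1 (lmFit, eBayes, no covariate), two-sided, with Benjamini-Hochberg adjustment at 0.05. Python 3.11.15 gave correlations, exact permutation tests over all 48620 divisions of the arrays and permutation tests with 100000 resamples. Scripts were tested on simulated data. All 44 symbols matched RefSeq genes by gene ID.

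Samples were grouped by title. The members and lists were chosen with earlier results of these data known. Named genes were those with an unadjusted p under 0.05, the 3 largest and 3 smallest log2 fold changes, the 2 largest spreads, the catalytic and interferon-induced genes, the 8 most alike other genes and, in each pathway list, up to 4 genes with an unadjusted p under 0.05 (of the interferon genes, those with the smallest p). PSMA7, PSMA6, PSMC3, PSMC4 and other ends of ranges, PARP14 as the last of 5, and ADRM1, NFE2L1, UCHL5, POMP, AKIRIN2, TXNL1 and the UBE2 genes were picked after their values were seen. Alternatives were other filters, variance models, weights, array scales and tests, all probe sets of a symbol averaged, and each array left out.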

Additional observations from a re-analysis of the deposited data

Results flagged for a closer look

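Among 92 groups of 9 values (the 44 genes and the means of core and cap, in control and in niacin cows), 10 had a highest or lowest cow set apart from its nearest neighbour by more than Dixon's 95% critical share of the range. Chance flags about 1 in 20 groups, which is 4.6 here. Control 12 was the lowest control cow for PSMD14 (log2 value 6.28, next 6.61), PSMD12 (7.46, next 7.76), PSME4 (6.85, next 7.17) and the cap mean (7.99, next 8.19). Control 1 was the highest control cow for PSMB2 (8.55, next 8.34) and PSMC3 (8.09, next 7.92). Control 11 was lowest for PSMB3 (8.46, next 8.76), control 23 was lowest for PSMG4 (6.66, next 7.31) and control 36 was highest for PSMD13 (8.36, next 8.12). Niacin 19 was the lowest niacin cow for PSMC1 (8.32, next 8.60). The genes of 1 complex in 1 cow are not independent.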

How the results depend on the processing

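PSMD14 and PSMD3 were the members with an unadjusted limma p under 0.05 in each of the 26 limma settings tried, with PSMG4 added without control 23, so that leaving out 1 cow gave 2 to 3 members and 0 past the adjusted p. Over all probe sets, leaving out 1 cow gave 0 to 1 past the adjusted p (1 without niacin 39). The adjusted p of PSMD14 ran from 0.262 to 0.720 and that of PSMD3 from 0.376 to 0.803. Median log2 fold changes stayed above 0, from 0.0139 (without niacin 8) to 0.0814 for the core, from 0.020 (without control 12) to 0.0872 for the cap and from 0.0060 (without niacin 8) to 0.066 for all members. Signs turned for PSMB6 (-0.0346 to 0.059 on leaving out 1 cow, and -0.0081 with array weights), PSMC6 (-0.0262 to 0.115) and PSME1 (-0.0736 to 0.0389).

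The median pair r ran from 0.444 to 0.541 and the r of core with cap from 0.852 to 0.913 on leaving out 1 cow. With settings chosen after seeing the data, the pair r was 0.419 (second quantile normalization), 0.579 (dim probe set mean regressed out) and 0.542 (without PSMB10 and PSMB11). For the interferon gene mean, leaving out 1 cow gave r of -0.192 to -0.0889 for PSMB5, -0.078 to 0.126 for PSMB6, -0.0827 to 0.0791 for PSMB7, 0.496 to 0.672 for PSMB10, 0.261 to 0.618 for PSME1 and 0.373 to 0.819 for PSME2. The call of PSMB10 was lost without control 1, 12 or 42 or niacin 15 or 19 (adjusted permutation p of 0.0502 to 0.253), that of PSME2 without control 1 (0.417) or niacin 15 (0.106), and PSME1 passed without niacin 3 (0.0246) or niacin 14 (0.0496). Without the 2 farthest cows r was 0.407 for PSMB10, 0.0834 for PSME2, -0.185 for PSMB6 and -0.114 for PSMB7. Within control cows it was 0.673 for PSME2 (exact permutation p adjusted 0.140), -0.189 for PSMB6 and -0.256 for PSMB7. Within niacin cows it was 0.841 for PSME2 (adjusted 0.041), 0.690 for PSMB6 (adjusted 0.0761), 0.406 for PSMB7 and 0.319 for PSMB5. The causes of these differences were not tested. No paired analysis was possible because the cow numbers of the groups do not overlap. Signal over background per probe was not used here.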
